A study of Mus musculus with 23 samples.

Results

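The 7 genes described here encode ubiquitin and small proteins that share its fold, namely Nedd8, Ubb, Rps27a, Sumo2, Sumo3, Ufm1 and Isg15. They were picked by name out of the 56941 genes in the count tables, through the Ensembl identifier that the GRCm39 annotation gives each of them. The samples were 23 RNA-seq libraries of primary hippocampal neurons from newborn (P0) pups, homozygous for the conditional allele Nedd8cKO, in which loxP sites lie before exon 2 and after exon 3 of Nedd8. On day 1 in vitro the neurons received a lentivirus that expressed, from the Synapsin1 promoter, either red fluorescent protein alone (RFP, 11 libraries) or CRE recombinase tagged with RFP (CRE, 12 libraries), and RNA was taken on day 12 according to the labels. Both groups thus carried the conditional allele, the virus and RFP, and differed in CRE. The Synapsin1 promoter is active in neurons, which limits CRE to these cells in a dish that also holds glia. Libraries are named by their group and number, and the number before the hyphen (1 to 3) was read as the culture. The comparison asked whether RNA of the other modifiers differed where Nedd8 was deleted.

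Ubiquitin and its relatives are made as precursors, trimmed by proteases to a C-terminal diglycine, activated by an E1 enzyme, passed to an E2 and joined to lysines of target proteins, often by an E3 ligase. NEDD8 is the closest relative of ubiquitin and is known for its attachment to cullins, the scaffolds of a large class of ubiquitin ligases, which it switches on. SUMO proteins act largely in the nucleus, UFM1 on ribosomes at the endoplasmic reticulum, and ISG15 is made in response to interferon. Among the genes that supply ubiquitin, Ubb encodes a head-to-tail chain of it, whereas Rps27a encodes 1 ubiquitin fused to a ribosomal protein.

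The coding sequence of Nedd8 is shown because the deletion acts on it. Nedd8 (ENSMUSG00000010376) lies on the minus strand of chromosome 14 at 55899715 to 55910069 (GRCm39), and its coding part of 243 bases is spread over 4 exons, with 18, 48, 83 and 94 coding bases. The sequence shown runs over chr14:55899989-55909269 without its introns and stop codon. Capitals mark exons 2 and 3, the part between the loxP sites, which are coding bases 19 to 149.
Nedd8: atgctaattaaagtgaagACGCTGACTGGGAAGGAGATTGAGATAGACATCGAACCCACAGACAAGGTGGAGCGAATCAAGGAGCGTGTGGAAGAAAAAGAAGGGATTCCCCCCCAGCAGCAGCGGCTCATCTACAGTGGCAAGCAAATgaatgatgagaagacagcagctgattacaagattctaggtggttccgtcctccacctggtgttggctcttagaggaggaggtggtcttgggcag

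Exons 2 and 3 held 131 of the 243 coding bases (53.9%). Since 131 is not a multiple of 3, joining exon 1 to exon 4 in the reference shifted the reading frame, and the first stop codon then followed after 7 codons, 6 of them from exon 1. In the transcript these exons made up 14.3% of bases, and in the union of all annotated Nedd8 exons 8.27%, so that a transcript lacking them would still have been counted under Nedd8. The guides used to place the loxP sites are shown with the PAM in capitals, as read from the genome, because they fix the ends of the deleted part.
sgRNA1: aacctcagtccacaagcatgAGG
sgRNA2: ctgcgaaagagcggcaagcaGGG

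The protospacer of sgRNA1 matched the minus strand of chromosome 14 at 55901498 to 55901517, in intron 1 and 182 bases from exon 2. That of sgRNA2 matched the plus strand at 55900745 to 55900764, in intron 3 and 108 bases from exon 3. The expected cuts were 739 bases apart.

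The ubiquitin parts of Ubb (ENSMUSG00000019505, chromosome 11, 62441951 to 62445102, plus strand) and Rps27a (ENSMUSG00000020460, chromosome 11, 29494748 to 29498109, minus strand) are shown to set out how far reads of these genes can be told apart. In the first of the 4 ubiquitin units of Ubb (chr11:62442972-62443199), capitals mark bases that differ from Nedd8 at the same position. In the unit of Rps27a (chr11:29496384-29497728, introns left out), capitals mark bases that differ from that unit of Ubb.
Ubb: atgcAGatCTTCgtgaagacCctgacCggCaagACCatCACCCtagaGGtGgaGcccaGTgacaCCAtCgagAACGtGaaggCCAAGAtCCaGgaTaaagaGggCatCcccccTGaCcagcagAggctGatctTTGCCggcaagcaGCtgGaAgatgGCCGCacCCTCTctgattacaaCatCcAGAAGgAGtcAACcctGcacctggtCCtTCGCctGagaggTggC
Rps27a: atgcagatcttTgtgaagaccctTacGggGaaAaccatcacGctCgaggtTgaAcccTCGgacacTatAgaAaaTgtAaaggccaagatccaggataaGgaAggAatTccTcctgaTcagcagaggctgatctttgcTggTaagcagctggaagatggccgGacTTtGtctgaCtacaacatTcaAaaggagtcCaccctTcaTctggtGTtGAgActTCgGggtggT

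Over its whole length the first unit of Ubb was identical to Nedd8 at 60.1% of positions and to Rps27a at 80.7%, while the 4 units of Ubb were between 95.6% and 99.1% identical to the first. No stretch of 50 bases of the Nedd8 transcript occurred exactly anywhere else in the genome, whereas 35.5% of the stretches of Ubb and 34.9% of those of Rps27a did. Counts of the ubiquitin genes are thus uncertain to the extent that reads fell in such stretches. The rows of named pseudogenes were small (Ubb-ps held 0.703% as many counts as Ubb). How reads that match several places were counted is not given in the sources used here, so small rows do not bound this uncertainty.

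Sumo2 (ENSMUSG00000020738, chromosome 11, 115410892 to 115427116, minus strand) is shown as the opposite case. Every base of its coding sequence (chr11:115414536-115426944, introns left out) lay in a stretch of 50 or more bases found exactly at another place in the genome, which is why none is capitalised.
Sumo2: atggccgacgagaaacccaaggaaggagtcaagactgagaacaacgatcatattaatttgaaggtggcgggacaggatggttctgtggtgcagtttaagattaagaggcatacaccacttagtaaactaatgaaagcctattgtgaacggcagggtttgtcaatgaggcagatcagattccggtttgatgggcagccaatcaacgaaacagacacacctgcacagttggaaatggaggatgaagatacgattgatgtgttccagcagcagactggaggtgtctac

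Of the 50-base stretches in the canonical Sumo2 transcript, 94.6% occurred exactly elsewhere, and 14 other loci held a copy of at least 100 bases at 95% identity or more. Sumo3 (ENSMUSG00000020265, chromosome 10, 77441863 to 77455936, plus strand), whose coding sequence was 83.0% identical to that of Sumo2 over 282 aligned bases, had 3.00% of its stretches elsewhere, Ufm1 11.4% and Isg15 8.60%.

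Per library, between 7430401 and 17112815 reads were counted in the 21 libraries (11 CRE, 10 RFP) that entered the tests, the set of the study's supplementary count table. The libraries left out were CRE 3-3, with 1546796 counted reads, and RFP 3-2. CRE library 1-3 stayed in, although it stood apart: 0.261% of its reads came from mitochondrial genes, against 6.997% to 11.1% in the 19 libraries other than CRE 1-3, CRE 3-3, RFP 2-4 and RFP 3-2. RFP library 2-4 had 3.44%. Of the 7 modifier genes, 3 were lower and 3 were higher in CRE 1-3 than in every other CRE library of the set, and only Nedd8 lay inside their range. Values that rest on CRE 1-3 are therefore given with and without it.

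In the CRE libraries, Nedd8 fell to 18.4% of its level in the RFP libraries, while of the other 5 modifiers that could be tested, 0 passed the threshold of an adjusted p under 0.05. Nedd8 was 1 of 6 tested members called (edgeR quasi-likelihood test, two-sided, Benjamini-Hochberg over all genes), beside 30.2% of all 14488 genes tested (16.4% higher and 13.8% lower in CRE). Among the 5 others, 0 had an unadjusted p under 0.05, and DESeq2 called 0 as well. Without CRE 1-3 and CRE 3-3, 4 of the 6 tested members (Nedd8 included) had an unadjusted p under 0.05 and Sumo3 was called higher. Without these, RFP 2-4 and RFP 3-2, 5 of the 6 had such a p. Those fits called 5492 and 5582 genes in all, against 4370 in the main fit. The share of all genes at that unadjusted p was not computed, so these counts cannot be read as particular to the modifiers. The seventh member, Isg15, had too few counts to enter the fit. In bulk RNA, fewer cells of a type and less RNA per cell cannot be told apart. The median log2 fold change of the 6 tested members, with the deleted Nedd8 among them, was -0.19, against 0.02 for all genes tested. The 5 others ran from -0.34 (Sumo2) to 0.24 (Sumo3). Ubb, Sumo2 and Ufm1 were lower in CRE, and Rps27a and Sumo3 higher.

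**Figure D1:**
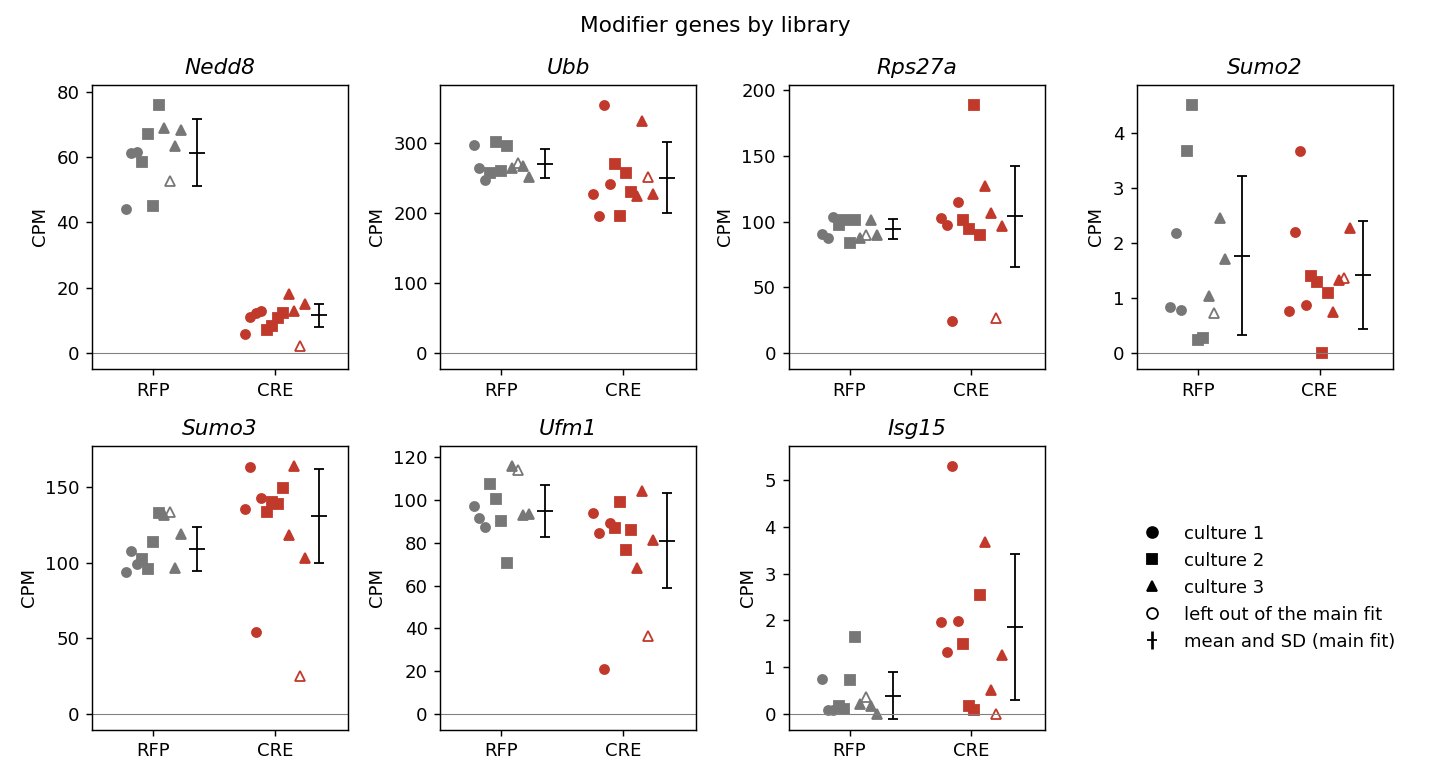
CPM (counts scaled to library size) of the 7 modifier genes, with each point a library, its shape the culture, open symbols the 2 libraries left out of the tests, and bars the mean and SD of the other libraries. Nedd8 is the only gene whose CRE libraries (5.92 to 18.0 CPM) all sit below the RFP libraries (44.1 to 76.0 CPM), and CRE library 1-3 is the low point of culture 1 for Rps27a, Sumo3 and Ufm1.

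Nedd8 served as the check of the labels. Its level ranged from 5.92 to 18.0 CPM with a median of 12.1 in the CRE libraries (75 to 195 counts each), and from 44.1 to 76.0 CPM with a median of 62.4 in the RFP libraries (479 to 865 counts each). All 11 CRE libraries lay below the lowest RFP library, so the groups did not overlap. The means were 11.5 ± 3.49 CPM (SD, n = 11) and 61.4 ± 10.2 CPM (SD, n = 10). The log2 fold change was -2.44 (SE 0.17, 95% interval -2.78 to -2.10, edgeR adjusted p = 6.98e-11), which left 18.4% of the RFP level (14.5% to 23.4%). In single CRE libraries the remainder ran from 9.63% (CRE 1-1) to 29.3% (CRE 3-1) of the mean of the RFP libraries. The excluded library CRE 3-3 held 3 counts of Nedd8.

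The fall of Nedd8 was seen in each culture. Its log2 fold change was -2.43 in culture 1, -2.71 in culture 2 and -2.14 in culture 3, with SEs of 0.26, 0.26 and 0.29. The difference between cultures did not pass its test (adjusted interaction p = 0.98), and the same was true of the other tested members (0.98 to 0.99). For Sumo3 the log2 fold changes in the 3 cultures were 0.28, 0.32 and 0.14, for Ubb -0.11, -0.24 and -0.01, and for Ufm1 -0.38, -0.10 and -0.26. Rps27a (-0.18, 0.29 and 0.24) and Sumo2 (0.52, -1.20 and -0.27) changed sign between cultures, and 0 of these were called within a culture (edgeR, 0 at an unadjusted p under 0.05, DESeq2 not run within cultures).

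Gmpr2, which shares 331 exon bases with Nedd8 on the opposite strand, had a log2 fold change of -0.13 (SE 0.26, edgeR adjusted p = 0.75). Its level was 1.91 to 6.16 CPM in CRE and 2.27 to 5.95 CPM in RFP. The strand setting of the counting is not given in the sources used here, so reads in the shared bases cannot be told apart.

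Neither of the ubiquitin members differed between groups beyond the spread of the libraries. Ubb, which encodes 4 ubiquitin units and is known to respond to stress, ranged from 195 to 354 CPM (median 230.4) in CRE and from 246 to 301 CPM (median 264) in RFP. Of the 11 CRE libraries, 7 lay below the lowest RFP library and 2 above the highest. Its log2 fold change was -0.13 (SE 0.11, 95% interval -0.35 to 0.09, edgeR adjusted p = 0.38), that is between 78.5% and 106% of the RFP level. Without CRE 1-3, its highest library, the value was -0.19 (SE 0.08, edgeR adjusted p = 0.072). Without CRE 1-3 and CRE 3-3 it was -0.17 (SE 0.08, edgeR adjusted p = 0.090).

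Rps27a, which supplies ubiquitin together with a protein of the small ribosomal subunit, ranged from 24.4 to 189 CPM (median 102) in CRE and from 83.6 to 104 CPM (median 94.1) in RFP. Both ends of the CRE range were single libraries, CRE 1-3 at the bottom and CRE 2-3 at the top, with the 9 others between 89.6 and 127 CPM. The log2 fold change of 0.12 (SE 0.19, 95% interval -0.26 to 0.51, adjusted p = 0.67) turned to -0.04 without CRE 2-3 and rose to 0.23 without CRE 1-3, and it was not called in either case (adjusted p = 0.89 and 0.092). Without CRE 1-3 and CRE 3-3 it was 0.25 (SE 0.10, edgeR adjusted p = 0.05015), just short of a call. Mtif2, whose exons overlap 1101 bases of Rps27a on the opposite strand, had a log2 fold change of -0.15 (adjusted p = 0.51).

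Among the 7 genes that activate and recycle ubiquitin, such as the E1 enzyme Uba1, 0 were called (edgeR, 1 at an unadjusted p under 0.05, and DESeq2 called 1). Their median log2 fold change was -0.03, and the share called among all genes tested was 30.2%. Without CRE 1-3 and CRE 3-3, and with RFP 3-2 kept, 2 of the 7 were lower in CRE, namely Uchl1, a deubiquitinase abundant in neurons (-0.49, adjusted p = 7.51e-06), and Uba1 (-0.18, adjusted p = 0.037). This alternative fit called 5492 genes, 53.2% of them higher in CRE and the rest lower. Of the 14 heat shock genes, whose inducers also raise Ubb, 2 rose, beside 16.4% of all tested genes, a share no higher than the background: Bag3, a co-chaperone (log2 fold change 1.78, adjusted p = 8.20e-06), and the small chaperone Hspb1 (3.49, adjusted p = 0.00076). Hspb1, at 0.3055 CPM in the mean of RFP, passed the filter only through the CRE libraries. The median of that list was -0.09.

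Rps27a was also set beside the other cytosolic ribosomal protein genes. Of the 81 tested out of 84, 5 rose and 1 fell, smaller shares than the 16.4% and 13.8% of all tested genes. Their median log2 fold change was 0.15 against 0.02 for all genes. Rpl3 was the one that fell (-0.54, adjusted p = 0.00014), and Rps10 (0.95, adjusted p = 0.019) and Rpl34 (0.34, adjusted p = 0.023) were among those that rose. Without CRE 1-3 and CRE 3-3, 18 rose and 5 fell, in a fit that called 5492 genes against 4370 in the main fit.

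Of the SUMO genes, Sumo3 was the member closest to a call. It ranged from 53.8 to 165 CPM (median 139) in CRE and from 94.1 to 133 CPM (median 105) in RFP, and 8 of the 11 CRE libraries lay above the highest RFP library. Only CRE 1-3, at 53.8 CPM, lay below the lowest. The means were 131 ± 31.2 and 109 ± 14.5 CPM, and the log2 fold change was 0.24 (SE 0.14, 95% interval -0.04 to 0.53, edgeR adjusted p = 0.20).

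The call of Sumo3 turned on that library. Without CRE 1-3 the log2 fold change of Sumo3 was 0.33 (SE 0.09, adjusted p = 0.0043), and without CRE 1-3 and CRE 3-3, the pair that the study's methods name as removed, it was 0.32 (1.25-fold, adjusted p = 0.0053). Leaving out 4 libraries, CRE 1-3, CRE 3-3, RFP 2-4 and RFP 3-2, gave 0.36 (adjusted p = 0.0013). With all 23 libraries it was 0.14 (adjusted p = 0.64), where the libraries added stood at 25.2 CPM (CRE 3-3) and 133.8 CPM (RFP 3-2). When each library's trend with the GC content of genes was removed instead, with CRE 1-3 kept, it was 0.24 (SE 0.11, adjusted p = 0.090).

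**Figure D2:**
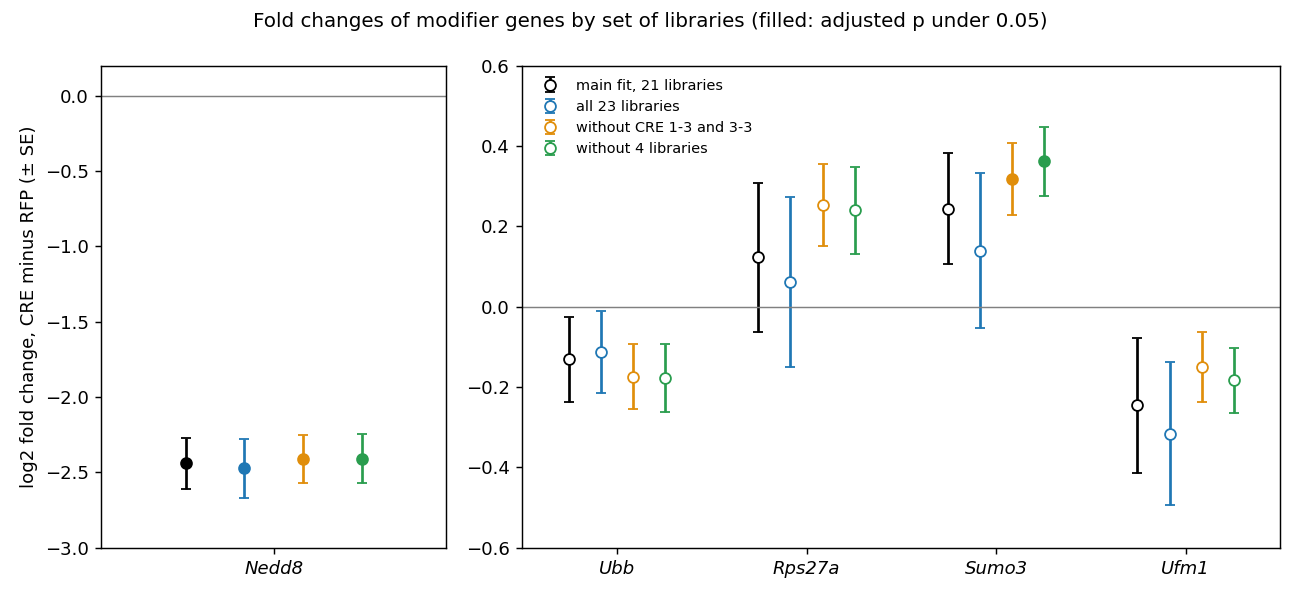
Log2 fold change (CRE minus RFP, ± SE) of Nedd8, on its own axis, and of Ubb, Rps27a, Sumo3 and Ufm1 under 4 sets of libraries, with filled points for an adjusted p under 0.05. Nedd8 stays between -2.47 and -2.41 in all 4, whereas Sumo3 moves from 0.14 with 23 libraries to 0.36 without 4 of them.

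Sumo2, the paralogue of Sumo3, was hardly counted. It had 0 to 30 counts per CRE library (0 to 3.68 CPM, median 1.29) and 3 to 44 counts per RFP library (0.238 to 4.51 CPM, median 1.37), and the groups overlapped in all but 1 library of each. The log2 fold change of -0.34 had a 95% interval from -1.43 to 0.75 (adjusted p = 0.68), so a fall to 37.0% or a rise to 168% of the RFP level was within its error. In view of the copies described above, the low count cannot be read as a low level of Sumo2 RNA.

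Of the 14 enzymes that attach or remove SUMO, edgeR called 0 (1 at an unadjusted p under 0.05), beside 30.2% of all genes tested. DESeq2 called 1 of the 14, and their median log2 fold change was 0.01. The one nearest the threshold was Pias4, a SUMO ligase, at 0.51 (adjusted p = 0.051). It was called with all 23 libraries (0.85, adjusted p = 0.017) and without CRE 1-3 and CRE 3-3 (0.33, adjusted p = 0.049), where the SUMO protease Senp5 was called as well (0.26, adjusted p = 0.030).

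Ufm1 (ENSMUSG00000027746, chromosome 3, 53760796 to 53771251, minus strand) ranged from 20.8 to 104 CPM (median 85.9) in CRE and from 70.8 to 116 CPM (median 93.3) in RFP. Apart from CRE 1-3, at 20.8 CPM, the CRE libraries held 68.2 to 104 CPM, and 2 CRE libraries in all lay below every RFP library. The log2 fold change was -0.25 (SE 0.17, 95% interval -0.59 to 0.10, adjusted p = 0.30). Without the 4 libraries it was -0.18 (adjusted p = 0.077). Of the 7 genes of UFM1 attachment and removal, edgeR called 0 (1 at an unadjusted p under 0.05), beside 30.2% of all genes tested. DESeq2 called 1 of the 7. The protease Ufsp2, which frees UFM1 from its targets, had the largest difference at -0.43 (adjusted p = 0.054), and it was called without CRE 1-3 and CRE 3-3 (-0.38, adjusted p = 0.047).

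**Figure D3:**
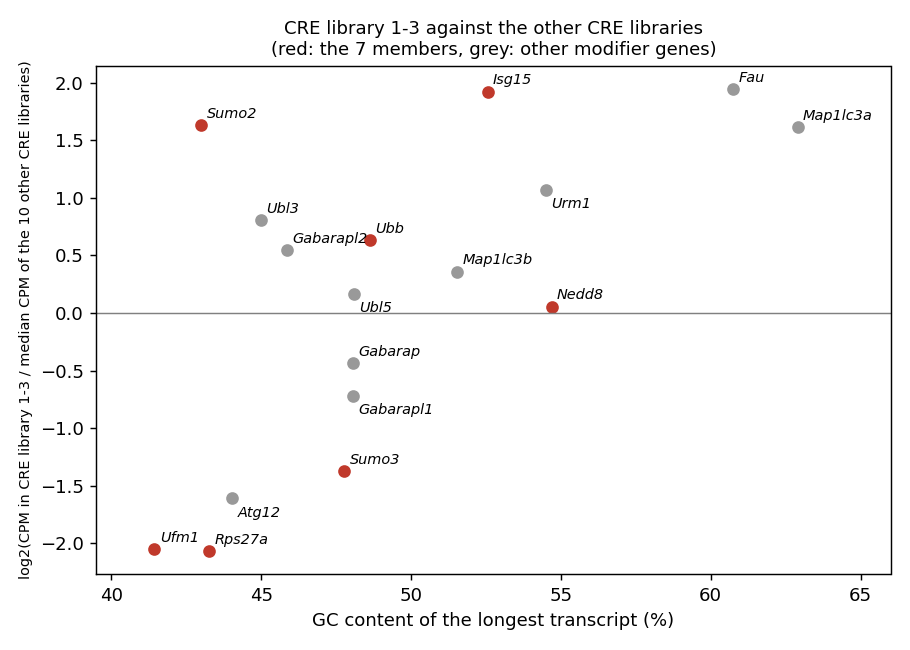
CPM in CRE library 1-3 over the median of the 10 other CRE libraries (log2, vertical axis) against the GC content of each gene's longest transcript in percent, for the 7 members in red and other modifier genes in grey. Ufm1 and Rps27a, at 41.4% and 43.3% GC, lie lowest, and Fau and Map1lc3a, at 60.7% and 62.9% GC, are among the highest. Sumo2, Ubl3 and Gabarapl2, at 43.0%, 45.0% and 45.9% GC, are off this order.

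In CRE 1-3 the modifier genes that stood below every other CRE library included Rps27a, Sumo3, Ufm1, Atg12, Gabarap and Gabarapl1, with 41.4% to 48.1% GC. Those above every other CRE library included Ubb (48.6% GC), Isg15 (52.6%) and Fau (60.7%). Sumo2 (43.0%), Ubl3 (45.0%), Gabarapl2 (45.9%) and Ubl5 (48.1%) were also above, so genes of similar GC content lay on both sides. Nedd8, at 54.7% GC, was at 12.1 CPM in this library, inside the range of the others. In the fit with the GC trend of each library removed, the log2 fold changes were 0.14 for Rps27a, 0.24 for Sumo3 and -0.18 for Ufm1 with SEs of 0.13, 0.11 and 0.09, and 0 of the 3 were called by edgeR (adjusted p = 0.40, 0.090 and 0.11).

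Isg15 (ENSMUSG00000035692, chromosome 4, 156283883 to 156285303, minus strand) was present at a few counts. The CRE libraries held 1 to 40 counts (0.0854 to 5.31 CPM, median 1.48) and the RFP libraries 0 to 18 counts (0 to 1.64 CPM, median 0.163). The sums were 215 counts in CRE and 47 in RFP, and 5 of the 11 CRE libraries lay above the highest RFP library, RFP 2-4. In culture 2 the CRE libraries split, with 2 at 0.0854 and 0.152 CPM and 2 at 1.48 and 2.54 CPM.

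Because it failed the filter on low counts, Isg15 had no value in the main fit. In the edgeR fit without that filter its log2 fold change was 2.196 (SE 0.67, adjusted p = 0.0205), and it was the only member other than Nedd8 past the threshold there. That fit called 6920 genes, 63.1% of them higher in CRE, and its median over all genes was 0.14. Without culture 3 the call was lost (1.83, adjusted p = 0.11). The highest CRE value was that of CRE 1-3, and Isg15 was in no fit that left this library out, so the call without it was not tested. Without the 4 libraries the means were 1.499 ± 1.12 CPM (SD, n = 10) and 0.248 ± 0.278 CPM (SD, n = 9), and 7 of 10 CRE values exceeded the highest RFP value.

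Of the 5 genes that attach and remove ISG15, 4 were tested and 3 rose, beside 16.4% of all tested genes: the ligase Trim25 from 5.80 ± 4.31 to 30.1 ± 8.75 CPM (log2 fold change 2.36, adjusted p = 7.09e-06), the E2 enzyme Ube2l6 from 3.91 to 11.5 CPM (1.53, adjusted p = 1.66e-05) and the E1 enzyme Uba7 from 0.408 to 1.35 CPM (1.72, adjusted p = 0.040). Usp18, the protease that removes ISG15, failed the filter, with 288 counts in CRE and 19 in RFP, and 10 of 11 CRE libraries were above the highest RFP library. The ligase Herc6 did not pass the test (0.56, adjusted p = 0.37). Uba7, listed at 0 in the lowest RFP library, passed the filter through its CRE counts, and it was not called without the 4 libraries (adjusted p = 0.088).

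Isg15 belongs to a larger set of interferon-stimulated genes. Of 24 such genes, 17 passed the filter and 13 of these rose, 0 fell, beside 16.4% of all tested genes that rose. The median log2 fold change was 2.25. Those with the smallest p were Bst2, which tethers virus particles to the cell (4.72, adjusted p = 2.45e-06), Rtp4 (3.87, adjusted p = 5.81e-06) and Parp14 (3.51, adjusted p = 0.00020). Genes with almost no counts in RFP passed the filter only through the CRE libraries, so the count over those that passed overstates the list. Of the 7 that failed it, 6 had a higher mean in CRE, with at most 288 counts over all CRE libraries. This list was drawn up with earlier results of these data known and is no independent evidence of its direction.

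The levels of different genes were compared per kilobase of exon. In the RFP libraries the order was Ubb (94.3 ± 6.99 CPM per kb), Nedd8 (38.8 ± 6.44), Rps27a (30.6 ± 2.36), Sumo3 (18.97 ± 2.52), Ufm1 (14.7 ± 1.88), Isg15 (0.494 ± 0.653) and Sumo2 (0.323 ± 0.264). Neighbours overlapped for Nedd8 and Rps27a, for Sumo3 and Ufm1, and for Isg15 and Sumo2, while the other steps had no overlap between libraries. In the CRE libraries Nedd8 dropped to the fifth place (7.24 ± 2.21 CPM per kb), below Ufm1 (12.6 ± 3.46), whose lowest library reached down to 3.24, and the order of the others was as in RFP. The place of Sumo2 holds for its counts only, given the copies described above. With the length of the longest coding transcript in place of the union of exons, the order was unchanged in both groups.

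Of 11 other ubiquitin-like genes reported here, 10 were tested, of which 1 rose and 2 fell, a share near the 30.2% of all genes called, and their median log2 fold change was -0.03. Ubl5, a modifier that binds partners without being joined to them, fell from 61.8 ± 10.6 to 48.2 ± 4.80 CPM (log2 fold change -0.38, SE 0.10, adjusted p = 0.0069), and 9 of 11 CRE libraries lay below every RFP library. Among the genes of the ATG8 family, which are joined to lipids in autophagy, Map1lc3b rose (0.31, SE 0.09, adjusted p = 0.0081), with 8 of 11 CRE libraries above every RFP library. Gabarap fell (-0.26, SE 0.09, adjusted p = 0.032), a call that was lost with all 23 libraries (adjusted p = 0.057).

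The other genes of this family, and Atg12, which is joined to a protein in autophagy, were not called. Gabarapl1 (0.03), Gabarapl2 (-0.19), Map1lc3a (-0.21) and Atg12 (-0.09) had adjusted p-values from 0.23 to 0.84, although Map1lc3a fell once CRE 1-3 and CRE 3-3 were left out (-0.41, adjusted p = 0.0032) and Gabarapl2 once the 4 libraries were (-0.28, adjusted p = 0.033). Ubl3 (0.23, adjusted p = 0.14), Urm1 (0.23, adjusted p = 0.29) and Fau (0.45, adjusted p = 0.13), a fusion of a ubiquitin-like and a ribosomal protein, were higher in the mean but not called, and Fau was called with all 23 libraries (0.61, adjusted p = 0.043). Without CRE 1-3 and CRE 3-3 these became 0.15 for Ubl3, 0.13 for Urm1 and 0.16 for Fau, which CRE 1-3 held at 259 CPM against 51.0 to 89.7 CPM in the other CRE libraries. Ubd had 1 count in the whole set.

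**Figure D4:**
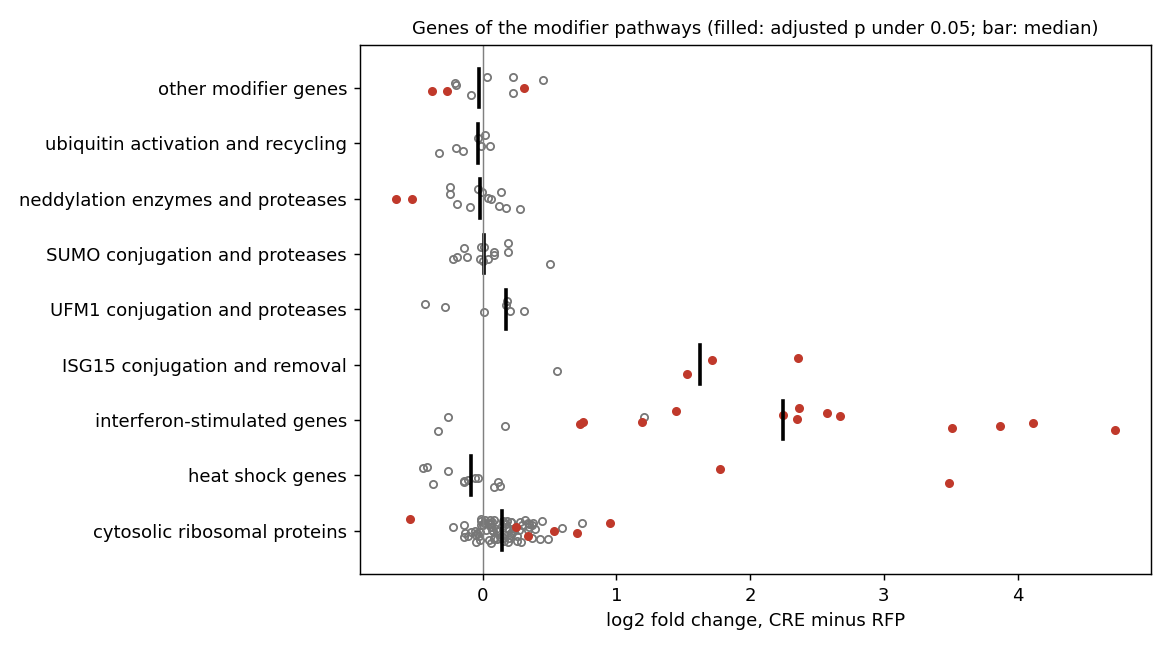
Log2 fold change (CRE minus RFP) of every tested gene in 9 lists around the modifiers, filled for an adjusted p under 0.05, with a bar at each list's median. The medians of 7 lists lie between -0.09 and 0.17, and those of the ISG15 and interferon lists at 1.62 and 2.25.

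The enzymes that handle NEDD8 itself were mostly not called. Of 14, 2 fell, a share near the 13.8% among all tested genes. Of the same 14, 0 rose, and the median log2 fold change was -0.02. Those that fell were Dcun1d4, which helps to place NEDD8 on cullins (from 140.5 to 90.8 CPM, log2 fold change -0.65, SE 0.14, adjusted p = 0.00092), and Rbx1, the RING subunit of cullin ligases that recruits the NEDD8-loaded E2 (from 93.8 to 65.8 CPM, -0.53, SE 0.13, adjusted p = 0.0034). The subunits of the NEDD8-activating enzyme, Nae1 (0.17, adjusted p = 0.71) and Uba3 (adjusted p = 0.99), and the E2 enzymes Ube2m (-0.09, adjusted p = 0.68) and Ube2f (0.04, adjusted p = 0.85) did not pass the test. In the fit without CRE 1-3 and CRE 3-3, 1 of the 14 rose and 2 fell, and the same held without the 4 libraries. Those fits called 5492 and 5582 genes, more than the 4370 of the main fit.

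Across libraries, after the group means were subtracted from log2 CPM, the other tested members had Pearson r from -0.22 to 0.14 with Nedd8 over 21 libraries. Sumo3 and Ufm1 had r = 0.82, Rps27a and Ufm1 0.77, and Rps27a and Sumo3 0.73. Without CRE 1-3 and RFP 2-4 these became 0.48, -0.38 and -0.19, and the last pair of relations thus changed sign. These values are descriptions over libraries that share group, culture and depth. The genes most like Nedd8 were Slc26a1 (r = 0.76, and 0.77 without the pair of libraries) and Gtf2ird2 (0.71 in both).

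For the other members the closest genes were Scand1 and Rtn2 for Ubb (0.89 each), Ppm1a and Dnajc21 for Rps27a (0.93 each), Ttc41 and Prdm8 for Sumo2 (0.77 and 0.76), Gm56971 and Ddx25 for Sumo3 (0.90 and 0.89), and Zfp869 and Slc36a4 for Ufm1 (0.98 and 0.97). Of these 10 genes, only Rtn2 and Ttc41 were still among the closest 2 without CRE 1-3 and RFP 2-4.

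Cell type markers moved with the group, beside 13.8% of all tested genes that fell and 16.4% that rose. Of the 8 neuron markers, 6 fell and 0 rose, and their sum was 2465 to 5002 CPM in CRE and 5377 to 6509 CPM in RFP, with no overlap. Without the 4 libraries these sums were 3069 to 5002 CPM and 5479 to 6509 CPM. Of the 8 astrocyte markers, 4 fell and 1 rose, with sums of 1559 to 5126 and 3612 to 7845 CPM. Of the 7 tested oligodendrocyte lineage markers, 5 fell, with list sums of 424 to 1910 CPM in CRE and 646.5 to 1872 CPM in RFP. Without the 4 libraries these sums were 424 to 1006 CPM and 646.5 to 1718 CPM. Microglia markers summed to at most 7.70 CPM in any library, with medians of 3.95 CPM in CRE and 2.17 CPM in RFP. Of the 2 microglia markers tested, Tmem119 rose (3.21, adjusted p = 0.00052), while Csf1r was lower and not called (median of the 2, 1.10). With all 23 libraries Tmem119 failed the filter, and only Csf1r was tested, at -1.09 and not called. All 8 markers together reached only these few CPM, so the rise of Tmem119 is one near the floor of counts. Whether it passed the filter only through the CRE libraries was not tested. Cx3cr1 was at 0 in CRE. The markers of endothelial and mesenchymal cells summed to between 15.0 and 241.5 CPM, with Cldn5 at 0 in RFP. The part of these shifts in the values of the modifiers was not tested.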

How the data were processed

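Transcriptomes of primary hippocampal neurons were measured by RNA-seq in 23 libraries. Per the submitters' processing notes, the authors used bcl2fastq (2.20.0.422), STAR (2.7.8a), featureCounts (1.5.0-p1) and the GRCm39 build, and deposited raw read counts per gene, 1 table per library. From these counts, edgeR (4.0.16, R 4.3.3) tested CRE against RFP: low-count filter with a minimum count of 10, TMM scaling, quasi-likelihood test, two-sided, Benjamini-Hochberg adjustment over 14488 genes, called under 0.05. CPM are TMM-scaled. Copies were sought with blastn (2.17.0) and Biopython (1.88) in Python (3.11.15).

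The 21 libraries tested were those of the study's supplementary count table. Its methods name CRE 1-3 and CRE 3-3 as removed instead, which was run as an alternative. Alternatives also covered DESeq2 (1.42.0), RLE scaling, no filter, each library or culture left out, culture blocks, sums per culture, a GC correction and pseudogene counts. With between 7430401 and 17112815 counts per library, genes of a few counts, such as Sumo2 and Isg15, have wide intervals. Labels do not say whether libraries came from separate cultures. The paper gives 3 biological replicates for its RNA-seq, so libraries of the same replicate may be technical repeats. The p-values treat libraries as independent and measure the spread between them. With counts summed per culture, edgeR called Nedd8 (-2.42, adjusted p = 5.10e-06) and Isg15 (2.20, adjusted p = 0.033). Sumo3 (0.25, adjusted p = 0.099) and the other members were not called there. Isg15 failed the filter of the main fit, and its main fold change comes from the fit without it.

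The members and gene lists were chosen with earlier results of these data known. The genes named were the members, the other modifier genes, up to 3 genes with the smallest p among those called in each list, the 2 genes most correlated with each member, and genes overlapping a member. Named outside this rule, after their values were seen, were Uba1, Uchl1, Pias4, Senp5, Ufsp2, Usp18, Herc6, Tmem119, Csf1r, Nae1, Uba3, Ube2m and Ube2f, and markers at 0. Some other modifier genes are not reported here.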

Additional observations from a re-analysis of the deposited data

Results flagged for a closer look

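Of 28 groups of 4 to 10 libraries examined for a library far from the others, 4 held one, and chance alone flags about 1 in 20. Rps27a stood at 189 CPM in CRE library 2-3, against 89.6 to 102 CPM in the other CRE libraries of culture 2. Ufm1 stood at 20.8 CPM in CRE library 1-3, against 84.6 to 93.8 CPM in the others of culture 1. In the same library Isg15 was highest, at 5.31 CPM against 1.32 to 1.99 CPM. Among the RFP libraries, Isg15 was highest in RFP library 2-4, at 1.64 CPM against 0 to 0.736 CPM. CRE 1-3 and RFP 2-4 were also the libraries of the tested set with the lowest mitochondrial shares (0.261% and 3.44%).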

How the results depend on the processing

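Nedd8 stayed called under all 36 alternatives (log2 fold change -2.60 to -2.29, and -2.55 to -2.39 with each library left out). Ubb (-0.23 to -0.05, leave-one-out -0.20 to -0.10) and Ufm1 (-0.41 to -0.15, leave-one-out -0.32 to -0.14) kept their direction and were called under none of theirs. Rps27a ran from -0.0394 to 0.23 with each library left out, -0.0394 being without CRE 2-3, and Sumo2 from -0.58 to -0.07. In the other alternatives Rps27a ran from -0.0352 to 0.27 and was not called, with a lowest adjusted p of 0.05015 (edgeR, without CRE 1-3 and CRE 3-3). Sumo2 turned to 0.15 without culture 2 and to 0.0612 with the GC trend removed, and the cause was not tested. Sumo3 ran from 0.18 to 0.33 with each library left out and was called at 0.33 without CRE 1-3, at 0.32 without CRE 1-3 and CRE 3-3, and at 0.36 without the 4 libraries. Isg15 (2.04 to 2.33 in the 9 fits without 1 RFP library that tested it) was no longer called without culture 3, at 1.83, where fewer libraries were tested. The filter depends on the size of the smaller group, and Isg15 passed it in those fits mainly through its CRE libraries. Its median was 18 counts in CRE and 2 in RFP, so that range is no independent support for a rise of Isg15. The number of genes called was 4031 to 5507 with each library left out, 2114 without culture 2 and 6920 with no filter, where the median of all genes was 0.14 instead of 0.02. Library numbers shared between the groups did not pair the libraries: deviations of same-numbered pairs correlated at -0.06 to 0.12. With culture and library number as a replicate block, Rps27a was -0.0352, Sumo3 0.10, Nedd8 -2.55 and 3152 genes were called, against 3556 in the same libraries without the block, a fit added after seeing the data. With the culture number as a replicate block, 4267 genes were called, and no call of a member changed under either block. Depth limits Sumo2 and Isg15, at 0 to 44 counts per library.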
